A study of Mus musculus with 12 samples.

Results

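The Sox genes encode transcription factors that bind DNA through a high mobility group (HMG) box related to that of the sex-determining gene Sry. The 9 members described here are Sox9 and Sox8 of the SoxE group, Sox5, Sox6 and Sox13 of the SoxD group, Sox4, Sox11 and Sox12 of the SoxC group, and Sox2 of the SoxB1 group. They were chosen by name, as Sox factors of cartilage, mesenchyme and epithelium, without a cut on measured levels but with earlier results of these data known. They are 9 of the 53801 genes listed for each library, and all 9 were among the 18365 genes that passed the filter on low counts and were tested. A further 10 Sox genes, outside the chosen list, also passed the filter and are described for comparison.

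RNA selected for poly(A) tails was sequenced from the maxillary prominence of wild type C57BL/6 mouse embryos with no treatment. The prominence forms the upper jaw and the palatal shelves and consists of neural crest-derived mesenchyme covered by epithelium. There were 3 libraries each at embryonic day (E) 10.5, 11.5, 12.5 and 14.5, made from littermates whose tissue was dissected whole. The title of E14.5 replicate 1 names 2 parts, which have 1 set of counts and were used as 1 library, and the number of embryos behind each library is not stated. The protocol for E14.5 is a text of its own with the same steps, so a difference in how those embryos were handled and their later age cannot be told apart.

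In cartilage, Sox9 starts the chondrocyte programme and activates genes of the cartilage matrix. Sox5 and Sox6, which lack a transactivation domain of their own, bind beside it and raise its output, and the 3 proteins are known as the Sox trio. Sox8 shares the DNA-binding and dimerization domains of Sox9, and Sox13 is the third SoxD protein. SoxC proteins act in undifferentiated mesenchyme and in maturing neurons, and Sox2 maintains progenitors of oral, dental and olfactory epithelium and of the neural tube.

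Levels are counts per 1000000 counts in genes (CPM) with TMM scaling, a correction for library composition, and means are given ± SD over the 3 libraries of a stage (n = 3). Differences are log2 fold changes ± SE from edgeR's quasi-likelihood test, with p-values adjusted by Benjamini-Hochberg over all 18365 genes and called below 0.05. The test gives no SE, so the SE was derived as the size of the fold change divided by the square root of the F statistic. Libraries held 28294837 to 33941430 counts in genes, and the biological coefficient of variation was 0.142. All 12 markers of maxillary mesenchyme had stage means above 1 CPM at every stage, with sums of 1472 to 1969 CPM at E10.5, 2453 to 2585 CPM at E11.5, 1818 to 2107 CPM at E12.5 and 1306 to 1373 CPM at E14.5. Alignments that fell in no annotated gene were 1.92% to 4.88% of those listed for the E10.5 libraries and 2.16% to 2.42% for E11.5. The E12.5 libraries had 5.03% to 5.43% and the E14.5 libraries 5.78% to 6.21%. In bulk tissue, fewer cells of a type and less RNA per cell cannot be told apart.

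Every member differed among the 4 stages in the joint test, which called 81.6% of all genes tested. From E10.5 to E11.5 the members that changed were Sox9, Sox13 and Sox5, all of which fell, against 25.1% of all genes called in either direction (12.9% lower). From E11.5 to E12.5, Sox2, Sox9, Sox6, Sox8 and Sox13 rose and Sox11 fell, where 49.3% of all genes were called (27.1% higher and 22.2% lower). Leaving out any 1 of the 12 libraries lowered that count of 6 to 4 or 5, through the calls of Sox8, Sox13 or both. From E12.5 to E14.5 all 9 were called, with Sox6 and Sox8 higher and the other 7 lower, where 47.1% of all genes were called (23.0% higher and 24.0% lower). Between E10.5 and E14.5 the members split in the same way, 2 higher and 7 lower, where 70.4% of all genes were called (36.6% higher and 33.8% lower). The markers of maxillary mesenchyme moved with the 7 that fell: 10 of 12 were lower and 1 higher at E14.5 against E12.5, and the same numbers held against E10.5. Their part in the falls of the members was not tested. With the percentage of alignments in no gene as a covariate, 2 members were higher and 4 lower at E14.5 against E10.5, where Sox2, Sox4 and Sox12 were no longer called (adjusted p = 0.336, 0.240 and 0.0601). The median log2 fold change of the members was -0.02, 0.34 and -0.77 at the 3 successive steps, beside -0.04, 0.06 and -0.01 over all genes tested.

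**Figure D1:**
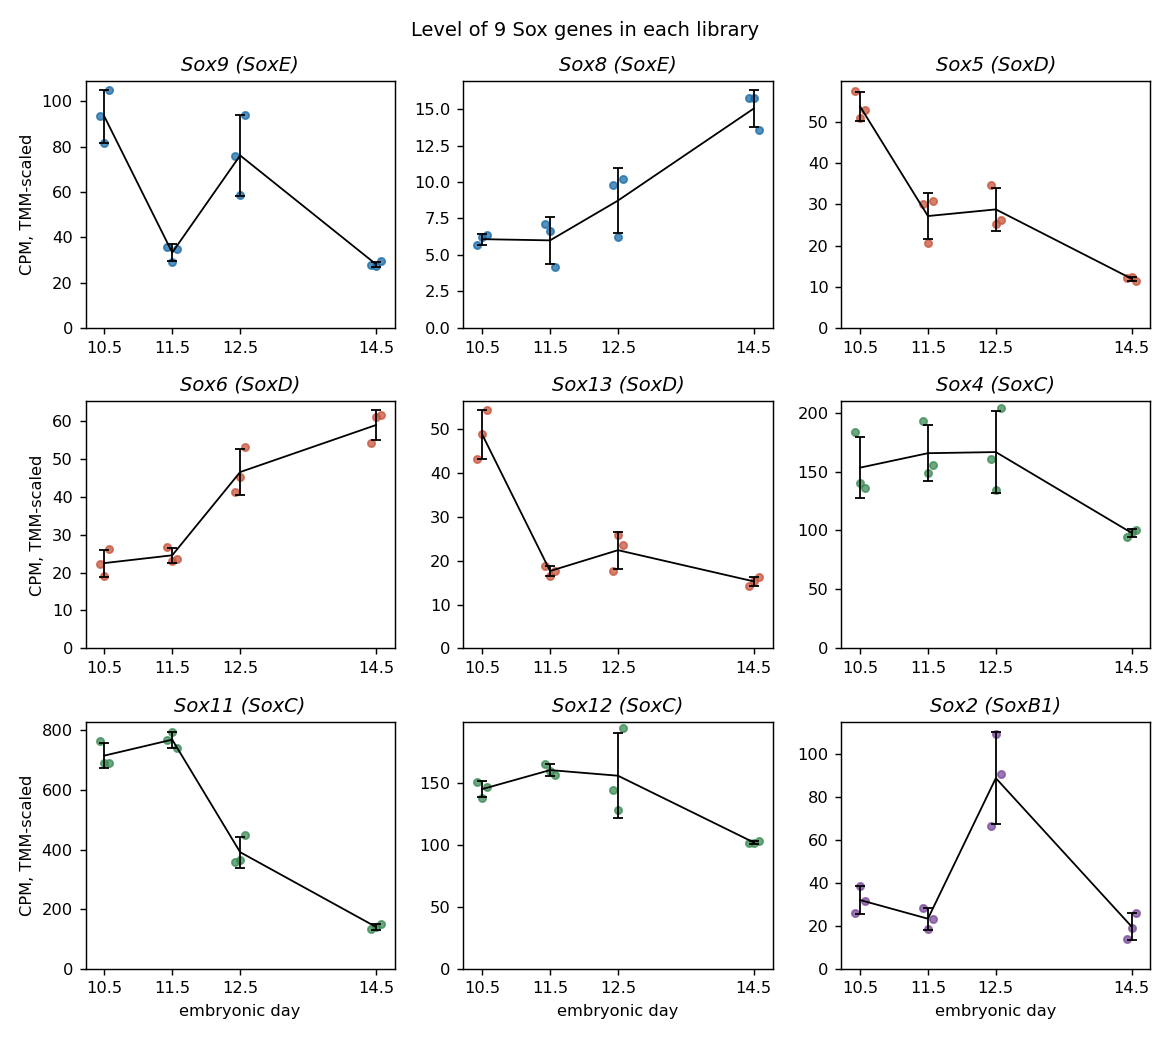
Level of each of the 9 Sox genes in CPM (vertical axis, from 0, a scale of its own in each panel) at E10.5, E11.5, E12.5 and E14.5. Points are libraries, the line joins the stage means and bars show ± SD (n = 3); Sox6 and Sox8 end above their E10.5 libraries and the other 7 genes end below theirs.

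Sox9 lies on chromosome 11 (112782224 to 112787760, plus strand, GRCm38) and has 3 exons. Its level alternated between high and low over the 4 stages. It stood at 93.5, 81.5 and 105 CPM in the E10.5 libraries and at 35.6, 29.1 and 35.0 CPM in those of E11.5. At E12.5 the libraries held 75.6, 58.5 and 94.1 CPM, and at E14.5 they held 27.7, 27.2 and 29.4 CPM. No library of a stage overlapped those of the next, and the E12.5 libraries overlapped those of E10.5.

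Sox9 fell by 1.49 ± 0.15 on the log2 scale from E10.5 to E11.5 (adjusted p = 1.27e-05), a mean 2.81-fold lower. It then rose by 1.19 ± 0.15 to E12.5 (adjusted p = 5.57e-05) and fell by 1.44 ± 0.15 to E14.5 (adjusted p = 7.77e-06). The summed level of 10 chondrocyte markers ran from 603 to 784 CPM in the E10.5 libraries, from 201 to 281 CPM at E11.5, from 463 to 640.5 CPM at E12.5, and from 639 to 1213 CPM at E14.5. Both dipped at E11.5, whereas at E14.5 Sox9 was low in all 3 libraries and the marker sum was not. The early sums rest on few genes, with 5 of the 10 markers under 1 CPM in their means at E10.5 and 6 at E11.5. Col2a1 alone had a mean of 451 CPM at E10.5 and 176 CPM at E11.5. Of the 10 markers, 4 were called lower and 0 higher from E10.5 to E11.5 (12.9% and 12.2% of all genes).

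Sox8, on chromosome 17 (25565892 to 25570686, minus strand), is the other SoxE member. It followed another course and was highest at E14.5. Its libraries held 5.66, 6.21 and 6.38 CPM at E10.5, 7.16, 6.66 and 4.18 CPM at E11.5, 9.79, 6.20 and 10.2 CPM at E12.5, and 15.8, 15.8 and 13.6 CPM at E14.5. All 3 libraries of E14.5 lay above every earlier library, whereas the 3 earlier stages overlapped one another. The change from E10.5 to E11.5 was -0.02 ± 0.21 (adjusted p = 0.961).

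Sox8 rose by 0.78 ± 0.20 from E12.5 to E14.5 (adjusted p = 0.00663), and its mean at E14.5 was 2.47 times that at E10.5. The rise of 0.54 ± 0.21 from E11.5 to E12.5 passed narrowly (adjusted p = 0.0464) with overlapping libraries. This call was lost in 15 of the alternative fits, which include each library left out, and kept in 6. Among the losses were the replicate number as a block (adjusted p = 0.0504) and limma-voom (adjusted p = 0.0541). An opposite-strand gene, 2810468N07Rik, shares 329 bases (10.6%) of the exons of Sox8 and had 955 counts in all libraries together. The strand setting of the counting is not given in the sources used here, so reads of the pair cannot be told apart over those bases.

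The balance between Sox8 and Sox9 was examined as the log2 ratio of the 2 genes within each library, to which gene length contributes a constant. The stage means were -3.83, -2.40, -3.06 and -0.88 from E10.5 to E14.5. The ratio differed among the stages in an exact permutation test over all 15400 partitions of the 12 libraries into 4 groups of 3 (p = 0.00013, adjusted over 7 pairs p = 0.000303). Its value in every E14.5 library, at -1.09 to -0.77, was above that in every earlier library.

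The SoxD genes Sox5 and Sox6 are the cofactors of Sox9 in cartilage and moved in opposite directions over the course. Sox5 spans chromosome 6 (143828425 to 144781977, minus strand) and Sox6 spans chromosome 7 (115470872 to 116038796, minus strand), each with 25 exonic blocks after merging its transcripts. The stretch of their coding sequences that aligned best among all members, 237 bases or 79 codons within the HMG box region, is shown because 2 closely related genes diverged in level. It covers codons 552 to 630 of 763 in Sox5 and codons 617 to 695 of 828 in Sox6, read 5′ to 3′ from GENCODE M21 transcripts on GRCm38. Capitals mark the 42 bases at which the 2 genes differ.
Sox5: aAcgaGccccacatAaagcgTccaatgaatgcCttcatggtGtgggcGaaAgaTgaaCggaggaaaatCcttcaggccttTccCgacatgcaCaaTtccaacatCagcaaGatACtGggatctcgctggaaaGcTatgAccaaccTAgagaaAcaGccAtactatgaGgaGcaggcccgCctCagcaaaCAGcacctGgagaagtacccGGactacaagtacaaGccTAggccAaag
Sox6: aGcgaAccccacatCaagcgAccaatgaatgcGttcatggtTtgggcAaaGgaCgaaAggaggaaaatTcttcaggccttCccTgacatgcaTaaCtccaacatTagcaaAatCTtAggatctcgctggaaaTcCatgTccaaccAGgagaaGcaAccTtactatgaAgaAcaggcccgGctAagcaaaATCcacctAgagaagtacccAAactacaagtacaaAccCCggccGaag
The identity of this stretch was 82.3% between Sox5 and Sox6. Across the members it ranged from 80.6% to 88.6% in the 7 pairs of the same Sox group and from 53.6% to 71.7% in the 29 pairs of different groups. The annotated transcripts of Sox5 and Sox6 shared no exact run longer than 23 bases.

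Sox5 was highest at E10.5. Its libraries held 57.6, 50.9 and 52.8 CPM at E10.5, 30.1, 20.6 and 30.7 CPM at E11.5, 34.7, 25.3 and 26.3 CPM at E12.5, and 12.1, 12.3 and 11.4 CPM at E14.5. The E11.5 and E12.5 libraries overlapped, and those of E10.5 and E14.5 stood apart above and below them. It fell by 0.99 ± 0.15 from E10.5 to E11.5 (adjusted p = 0.000319) and by 1.27 ± 0.15 from E12.5 to E14.5 (adjusted p = 2.36e-05), while the step between them was 0.08 ± 0.15 (adjusted p = 0.660). Over the whole course the mean of Sox5 fell 4.51-fold.

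Sox6 took the reverse course. Its libraries held 22.3, 19.0 and 26.2 CPM at E10.5, 26.9, 23.2 and 23.7 CPM at E11.5, 41.3, 45.3 and 53.1 CPM at E12.5, and 54.3, 61.1 and 61.5 CPM at E14.5. The first pair of stages overlapped and every later stage lay above the one before it. The rise came between E11.5 and E12.5, at 0.92 ± 0.12 (adjusted p = 8.67e-05). A further 0.34 ± 0.12 was added to E14.5 (adjusted p = 0.0311). That call was lost without E12.5 replicate 1 (adjusted p = 0.143) or 2 (adjusted p = 0.0854). It was also lost without E14.5 replicate 2 (adjusted p = 0.0891) or 3 (adjusted p = 0.0885), and with the percentage of alignments in no gene as a covariate. From E10.5 to E14.5 the mean rose 2.62-fold, a log2 change of 1.39 ± 0.12 (adjusted p = 3.56e-07).

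Sox13, on chromosome 1 (133382303 to 133424377, minus strand), is the SoxD gene best known from T cells and arterial wall. Its libraries held 43.3, 48.9 and 54.3 CPM at E10.5, 18.8, 16.5 and 17.6 CPM at E11.5, 17.7, 25.9 and 23.6 CPM at E12.5, and 14.2, 15.5 and 16.2 CPM at E14.5. The E10.5 libraries lay far above all the others. Sox13 fell by 1.47 ± 0.13 from E10.5 to E11.5 (adjusted p = 4.97e-06), close in size to the fall of Sox9 at that step. The rise of 0.34 ± 0.13 to E12.5 (adjusted p = 0.0426) had overlapping libraries. This call was lost in 12 of the alternative fits and kept in 9. Among the losses were limma-voom (adjusted p = 0.0668) and the fit of the 2 stages alone (adjusted p = 0.0736). Sox13 then fell by 0.55 ± 0.13 to E14.5 (adjusted p = 0.00371).

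The log2 ratio of Sox6 to Sox5 rose at each step. It was -1.35, -1.40 and -1.0 in the E10.5 libraries, -0.16, 0.17 and -0.37 at E11.5, 0.25, 0.83 and 1.00 at E12.5, and 2.12, 2.27 and 2.38 at E14.5. No library overlapped those of another stage, and the difference of 3.50 between the E10.5 and E14.5 means corresponds to the opposite courses of the 2 genes. The exact permutation test gave p = 6.49e-05, the smallest these partitions can give (adjusted over 7 pairs p = 0.000227). The ratio of Sox13 to Sox6 fell from 1.10 at E10.5 through -0.47 and -1.05 to -1.91 at E14.5 (exact permutation test, adjusted p = 0.000227).

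Sox13 and Sox5 kept a narrower ratio, with stage means of -0.14, -0.59, -0.36 and 0.34. The exact permutation test gave p = 0.0444, or 0.0518 after adjustment over the 7 pairs, and so did not pass. Without E12.5 replicate 1 it passed (adjusted p = 0.00568), and likewise without E12.5 replicate 2 (adjusted p = 0.0317). In E12.5 replicate 1 the ratio was -0.95, against 0.03 and -0.15 in the other E12.5 libraries.

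**Figure D2:**
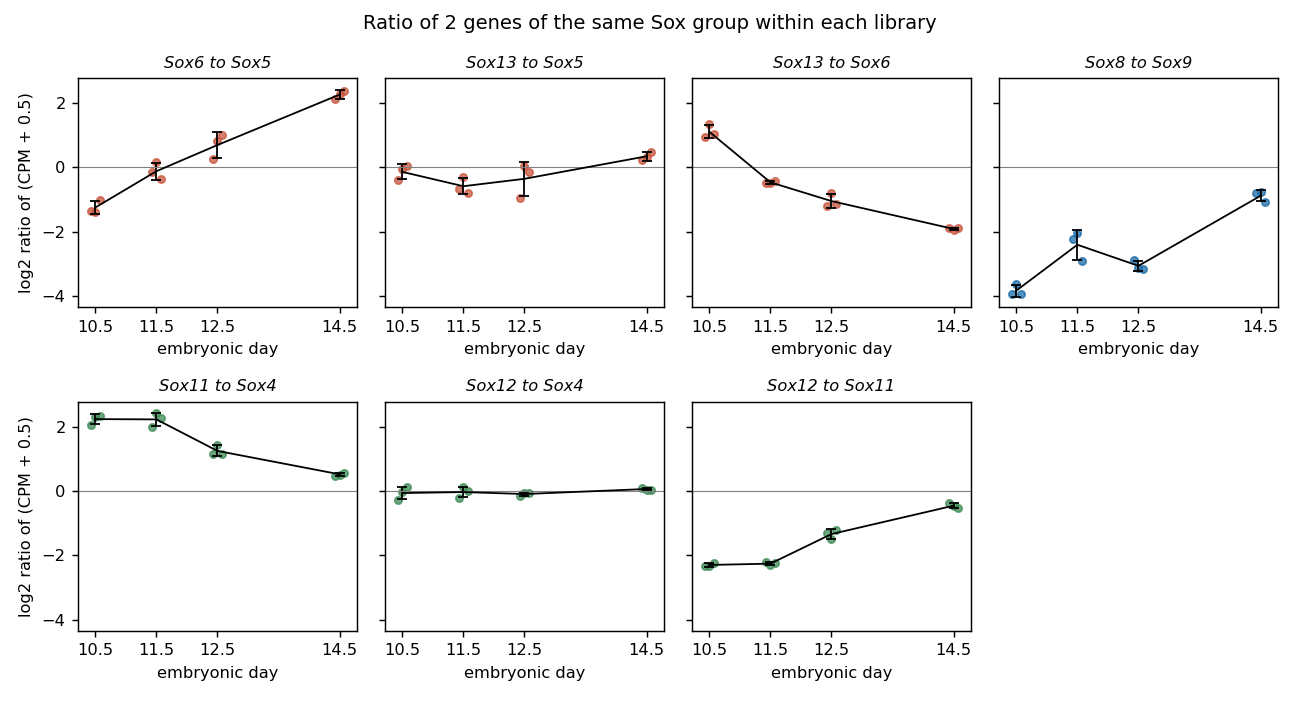
Log2 ratio of CPM + 0.5 between 2 genes of the same Sox group within each library (vertical axis) at the 4 stages, for 7 pairs. Points are libraries and lines join stage means; Sox6 to Sox5 climbs from -1.25 to 2.26 while Sox12 to Sox4 stays between -0.28 and 0.11 in all 12 libraries.

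The SoxC genes are single-exon genes that encode the most abundant members per length at E10.5 and E11.5. Sox4 lies on chromosome 13 (28948919 to 28953713), Sox11 on chromosome 12 (27334264 to 27342574) and Sox12 on chromosome 2 (152393611 to 152398063), all on the minus strand. The same 79-codon stretch is shown for Sox4 and Sox11, because Sox11 parted in level from Sox4. It covers codons 55 to 133 of 440 in Sox4 and 45 to 123 of 395 in Sox11. Capitals mark the 27 bases of Sox11 that differ from Sox4.
Sox4: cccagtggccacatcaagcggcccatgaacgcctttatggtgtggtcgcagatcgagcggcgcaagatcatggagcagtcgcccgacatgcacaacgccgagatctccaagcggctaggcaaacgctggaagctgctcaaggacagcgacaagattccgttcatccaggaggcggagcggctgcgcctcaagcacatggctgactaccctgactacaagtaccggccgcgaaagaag
Sox11: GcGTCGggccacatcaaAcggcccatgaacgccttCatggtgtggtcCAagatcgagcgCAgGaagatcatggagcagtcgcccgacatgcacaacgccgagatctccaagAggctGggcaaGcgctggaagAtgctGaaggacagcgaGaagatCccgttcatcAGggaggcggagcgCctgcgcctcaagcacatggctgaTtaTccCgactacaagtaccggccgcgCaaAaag
In this stretch Sox4 shared 88.6% of bases with Sox11, and the longest exact run in common between their transcripts was 48 bases.

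Sox11, which is abundant in embryonic mesenchyme and immature neurons, was the SoxC gene that fell most. Its libraries held 765, 690.4 and 690.3 CPM at E10.5 and 769, 795 and 742 CPM at E11.5. They held 357, 366 and 450.4 CPM at E12.5 and 132, 139.9 and 149.5 CPM at E14.5. The first pair of stages overlapped, and E12.5 and E14.5 each lay wholly below the stage before. Sox11 fell by 0.97 ± 0.10 from E11.5 to E12.5 (adjusted p = 1.51e-05) and by 1.48 ± 0.10 to E14.5 (adjusted p = 2.75e-07). Its mean at E14.5 was 5.09-fold lower than at E10.5, a log2 change of -2.35 ± 0.11 (adjusted p = 1e-09), and the size of this fall was the largest among the members.

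Sox4, which acts in mesenchymal survival and growth, and Sox12, the weakest activator of the group, were called at no step before E14.5. Sox4 stood at 183, 141 and 136 CPM at E10.5, 193, 148 and 156 CPM at E11.5, 161, 135 and 204 CPM at E12.5, and 94.6, 98.5 and 101 CPM at E14.5. Sox12 stood at 151, 138 and 147 CPM, then 166, 160.1 and 157 CPM, then 145, 129 and 195 CPM, and 102, 102 and 103 CPM at E14.5. For both genes the E14.5 libraries lay below all earlier libraries, and the E11.5 libraries of Sox12 lay above those of E10.5. The earlier steps were between -0.04 and 0.15 on the log2 scale for the pair, with adjusted p from 0.404 to 0.967.

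The fall of Sox4 from E12.5 to E14.5 was 0.77 ± 0.15 in log2 units (adjusted p = 0.00108) and that of Sox12 was 0.61 ± 0.12 (adjusted p = 0.000916). Against E10.5 the E14.5 levels differed by -0.65 ± 0.15 for Sox4 (adjusted p = 0.00171) and -0.51 ± 0.12 for Sox12 (adjusted p = 0.00163). Without TMM scaling, which moved the median of all genes by 0.32 in that comparison, these became -0.32 (adjusted p = 0.0997) and -0.19 (adjusted p = 0.263) and did not pass. Sox4 shares 54.6% of its exon bases with the opposite-strand Gm26735, which had 1 count in all libraries together.

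Sox4 and Sox12 had the closest stage profiles of any 2 members, at a root mean square distance of 0.06 in log2 units between profiles centred on their own means. Their log2 ratio had stage means of -0.06, -0.03, -0.09 and 0.06 and ran from -0.28 to 0.11 over the 12 libraries (exact permutation test, adjusted p = 0.541). Sox11 parted from both. The ratio of Sox11 to Sox4 was 2.23 and 2.22 at E10.5 and E11.5, then 1.24 and 0.52 (exact permutation test, adjusted p = 0.000909). The ratio of Sox12 to Sox11 rose from -2.29 and -2.25 to -1.34 and -0.46 (exact permutation test, adjusted p = 0.000455).

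The promoters of Sox4 and Sox12 are shown because the ratio of these 2 genes moved by less than the spread between libraries. Each is the 250 bases before the start annotated by RefSeq on GRCm38.p6, on the minus strand, at chr13:28953700-28953949 for Sox4 and chr2:152398047-152398296 for Sox12. GENCODE places the starts slightly upstream, at 28953713 and 152398063, so by its annotation the last bases of each window are exonic. The last CCAAT match of the Sox4 window lies among them. Capitals mark CCAAT and GGGCGG on either strand.
Sox4: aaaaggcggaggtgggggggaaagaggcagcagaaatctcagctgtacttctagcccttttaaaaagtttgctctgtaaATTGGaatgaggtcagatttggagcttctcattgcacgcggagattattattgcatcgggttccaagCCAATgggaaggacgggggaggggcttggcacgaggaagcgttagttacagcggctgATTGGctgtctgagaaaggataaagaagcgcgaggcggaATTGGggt
Sox12: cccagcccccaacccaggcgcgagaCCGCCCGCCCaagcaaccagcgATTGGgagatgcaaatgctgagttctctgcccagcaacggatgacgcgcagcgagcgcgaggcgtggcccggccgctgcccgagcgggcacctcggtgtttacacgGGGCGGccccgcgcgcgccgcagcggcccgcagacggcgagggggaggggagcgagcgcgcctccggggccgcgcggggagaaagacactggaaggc
The Sox4 window held 4 matches to CCAAT and 0 to GGGCGG, and the Sox12 window held 1 match to CCAAT and 3 to GGGCGG, 2 of which overlap. Among 32851 mouse promoter windows of the same length, 33.8% held CCAAT and 32.7% held GGGCGG on either strand. TATAAA and AACAAT, a core motif of Sox proteins, were in neither window, and 12.4% and 9.42% of all windows held them. Of the members, 8 of 9 had an entry in the promoter table, and Sox9 did not.

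Sox2 encodes the SoxB1 factor of epithelial and neural progenitors and lies on chromosome 3 (34650405 to 34652461, plus strand), within the longer noncoding gene Sox2ot, with which it shares 0 exon bases. It stood high at E12.5. Its libraries held 26.0, 38.6 and 31.3 CPM at E10.5, 28.4, 18.3 and 23.1 CPM at E11.5, 66.4, 109 and 90.4 CPM at E12.5, and 13.8, 19.0 and 26.0 CPM at E14.5. The E12.5 libraries lay above all the others, and those of E10.5 and E11.5 overlapped.

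Sox2 rose by 1.93 ± 0.24 from E11.5 to E12.5 (adjusted p = 5.5e-05), a mean 3.81-fold higher, and fell by 2.17 ± 0.24 to E14.5 (adjusted p = 1.31e-05). With each library left out in turn the rise was 1.75 to 2.09. The fall from E10.5 to E14.5, -0.70 ± 0.24 (adjusted p = 0.0172), was lost without E10.5 replicate 2 (adjusted p = 0.0637), without E14.5 replicate 1 (adjusted p = 0.0828) and without TMM scaling (adjusted p = 0.183).

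Markers of tissues that carry Sox2 were read beside it. The summed level of 12 markers of forebrain, eye and olfactory placode was 59.1 to 88.2 CPM at E11.5, 80.9, 224 and 174 CPM in E12.5 replicates 1, 2 and 3, and 95.4 to 101 CPM at E14.5. Of the 10 of these markers that were tested, 7 rose and 1 fell from E11.5 to E12.5 (27.1% and 22.2% of all genes), or 1 and 0 with the covariate for alignments in no gene. Otx2, a defining gene of forebrain and olfactory placode in that list, stood at 3.12, 28.3 and 16.2 CPM in the same E12.5 libraries, in the order that Sox2 showed there. The sum of 12 epithelial markers was 907 to 963 CPM at E11.5, 805, 1367 and 1019 CPM at E12.5, and 1235 to 1867 CPM at E14.5, where Sox2 was low. In E12.5 replicate 1 the forebrain sum lay within the range of the E11.5 libraries and the epithelial sum below all of them. In that 1 library Sox2, at 66.4 CPM, was above every E11.5 library. At E14.5, 6 of the 12 forebrain markers had means under 1 CPM, so the sum there rests on the others. The part of these tissues in the level of Sox2 was not tested.

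**Figure D3:**
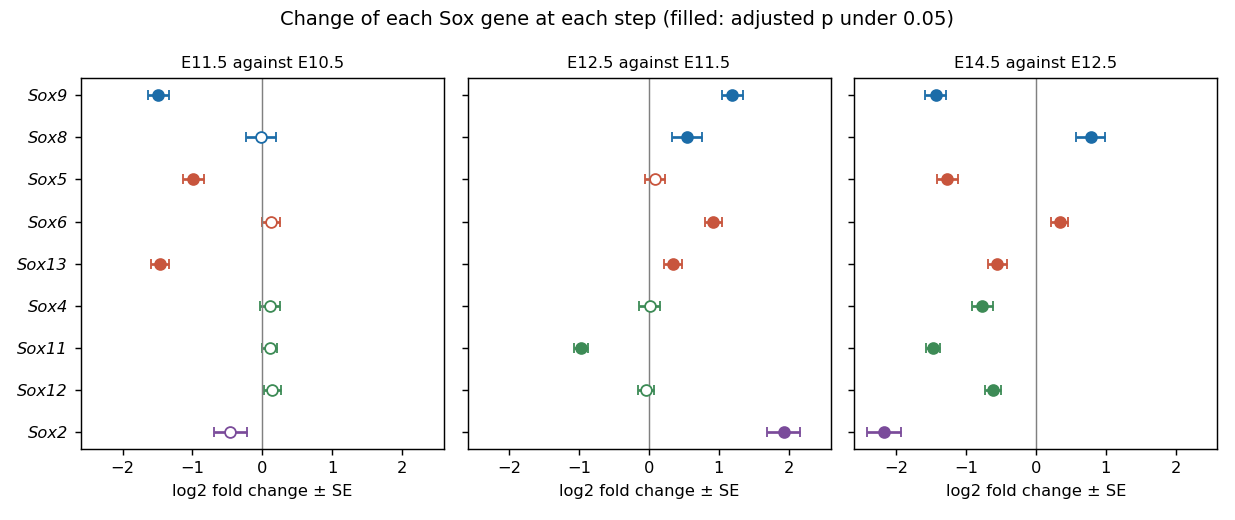
Log2 fold change ± SE of the 9 Sox genes at each of the 3 successive stage comparisons, with filled symbols where the adjusted p was below 0.05. Sox2 has the largest rise (1.93, E11.5 to E12.5) and the largest fall (-2.17, E12.5 to E14.5).

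Levels of different genes were compared per kilobase of annotated exon. At E10.5 the order was Sox11 (86.0 CPM per kilobase), Sox12 (32.6), Sox4 (32.0), Sox9 (22.6), Sox2 (15.5), Sox13 (11.3), Sox5 (3.74), Sox8 (1.95) and Sox6 (1.52). Of the neighbours in this order, Sox12 and Sox4 overlapped in their libraries and no others did. At E11.5 Sox11 led at 92.5 CPM per kilobase, Sox2 stood above Sox9 at 11.3 against 8.04, and the lowest 3, Sox8, Sox5 and Sox6, overlapped as neighbours at 1.92, 1.89 and 1.66.

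At E12.5 Sox11 (47.1 CPM per kilobase), Sox2 (43.1), Sox12 (35.1) and Sox4 (34.7) overlapped as neighbours, followed by Sox9 at 18.4 and Sox13 at 5.20. The lowest 3, Sox6 (3.14), Sox8 (2.80) and Sox5 (2.00), again overlapped as neighbours. By E14.5 Sox12 (23.0 CPM per kilobase) and Sox4 (20.4) stood above Sox11 (16.9), with no overlap between these neighbours. Sox2 (9.52) and Sox9 (6.79) overlapped there, Sox8 (4.82) and Sox6 (3.97) stood above Sox13 (3.54) in their means, of which Sox6 and Sox13 overlapped, and Sox5 was last at 0.83. Sox11 made up 41.5% ± 0.98 of the per-length sum of the 9 members at E10.5, 48.2% ± 2.71 at E11.5, 24.6% ± 0.36 at E12.5 and 18.8% ± 0.10 at E14.5.

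The place of Sox4 depends on the length used. All its counts divided by only the exon bases that it does not share with Gm26735 gave 70.3, 76.0, 76.4 and 44.9 CPM per kilobase at the 4 stages. That puts Sox4 second at E10.5 and E11.5 and first at E12.5 and E14.5. These values hold only if no read over the shared bases was counted for Sox4, and are too high otherwise. The strand setting that decides this is not given in the sources used here. By the longest annotated transcript, Sox8 fell to the last place at the first 3 stages and Sox6 rose to the fifth at E14.5, since the merged exons of Sox5 and Sox6 are longer than any 1 transcript.

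**Figure D4:**
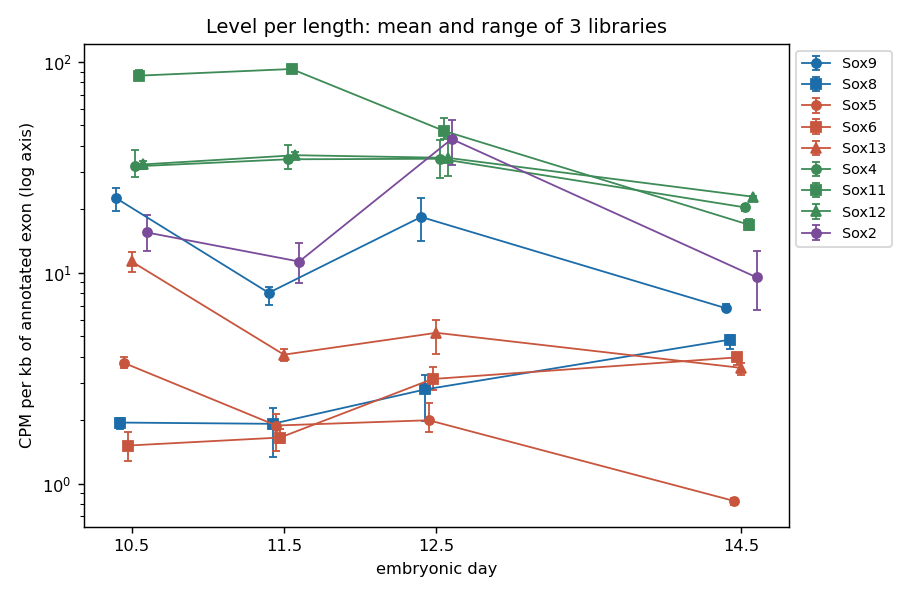
Level of the 9 Sox genes per kilobase of annotated exon (CPM per kilobase, log axis) at the 4 stages; symbols are means and bars span the lowest and highest of 3 libraries. Sox11 starts at 86.0 and ends at 16.9, below Sox12 and Sox4, and Sox6 rises from 1.52 to 3.97 while Sox5 falls from 3.74 to 0.83.

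For each member the 3 genes with the nearest stage profile were sought among 12336 genes with at least 5 CPM in their highest stage, by the root mean square distance between centred log2 stage means over the 4 stages. Sox2 was nearest to Dmrta2 (0.10), a transcription factor gene of forebrain and olfactory placode, to Shh (0.11), the hedgehog ligand made by oral epithelium, and to Cldn9 (0.21), a tight junction gene. Shh stood at 5.77, 3.31, 15.3 and 3.28 CPM at the 4 stages. Sox5 was nearest to Dlx2 (0.07), the homeobox gene of jaw mesenchyme, which stood at 77.2, 39.5, 37.4 and 17.8 CPM, and then to Dach1 and Zswim5 (0.10 each). Sox11 was nearest to Hmga2 (0.10), a chromatin protein gene of embryonic growth at 691, 731, 427 and 127 CPM, and then to Gm11585 and Lsm3.

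The nearest profile to Sox9, that of Rundc3a (0.16), was farther off than the nearest to any other member. Foxd2os (0.20) and Eya2 (0.20) came next. Rundc3a varied between the E12.5 libraries, at 8.42 ± 6.07 CPM. Eya2, a transcriptional coactivator gene, stood at 41.4, 17.5, 42.7 and 18.5 CPM and so shared the alternation of Sox9. The 3 nearest to Sox13 were Amt (0.02), Soga3 and Myrf, and the 3 nearest to Sox6 were Tapbp (0.03), Slc27a1 and Frmpd1. Sox8 was nearest to Galns (0.03), which encodes a lysosomal sulfatase acting on matrix sugars, Lhfpl2 and Sidt2. Dync2li1, Trmt112 and Cuedc2 were nearest to Sox4, and Nudt16l1, Trappc2l and Txndc12 to Sox12, all 6 within 0.03. These distances describe 4 stage means and carry no test.

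The other 10 Sox genes gave a background for the members. Between E10.5 and E11.5 they gave 3 falls, Sox1, Sox10 and Sox17, where 12.9% of all genes fell. To E12.5 there were 6 rises, Sox1, Sox7, Sox10, Sox17, Sox18 and Sox21, and 1 fall, Sox14 (27.1% and 22.2% of all genes). With the covariate for alignments in no gene the 6 rises became 2. To E14.5 there were 3 rises (Sox7, Sox15 and Sox18) and 3 falls (Sox3, Sox10 and Sox14), where 23.0% of all genes rose and 24.0% fell. Few counts lay behind some of these calls. Over the libraries of E12.5 and of E14.5, Sox15 had 9 and 42 counts, Sox3 had 84 and 15, and Sox14 had 50 and 14. Sox30, known from the testis, was between 0.40 and 0.54 CPM in its stage means and was called at no step.

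Sox10 is the SoxE gene of neural crest and its glia, and its course had the same sequence of directions as that of Sox9. Its libraries held 31.2, 59.4 and 40.7 CPM at E10.5, 22.0, 19.0 and 16.4 CPM at E11.5, 32.9, 24.9 and 32.9 CPM at E12.5, and 12.8, 16.3 and 16.5 CPM at E14.5. It fell by 1.19 ± 0.20 (adjusted p = 0.000851), rose by 0.66 ± 0.20 (adjusted p = 0.0164) and fell by 0.99 ± 0.20 (adjusted p = 0.00144) at the successive steps. A list of 10 genes of crest glia and Schwann cells, which includes Sox10, summed to 127 to 270 CPM at E10.5, 94 to 176 CPM at E11.5, 149 to 155 CPM at E12.5 and 127 to 148 CPM at E14.5. Of its 9 tested genes 2 rose and 2 fell from E12.5 to E14.5 (23.0% and 24.0% of all genes), and Foxd3 had 0 counts at every stage.

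The SoxF genes Sox7, Sox17 and Sox18 mark endothelium. Sox18 rose from 14.3 ± 2.47 CPM at E12.5 to 32.9 ± 4.14 CPM at E14.5 (log2 change 1.20 ± 0.16, adjusted p = 7.22e-05), and Sox7 from 7.78 ± 1.01 to 13.5 ± 1.02 CPM (0.80 ± 0.18, adjusted p = 0.00252). Sox17 was not called at that step (0.48 ± 0.23, adjusted p = 0.101). The 10 endothelial markers summed to 338 to 466 CPM at E12.5 and 519 to 594 CPM at E14.5.

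Of the SoxB genes, Sox21 rose with Sox2 from 2.61 ± 1.05 CPM at E11.5 to 11.2 ± 3.94 CPM at E12.5 (log2 change 2.10 ± 0.35, adjusted p = 0.000447), yet stood at 9.04 ± 1.98 CPM at E14.5 (-0.31 ± 0.33, adjusted p = 0.468). Sox14 fell from 3.53 ± 1.00 CPM at E11.5 to 0.506 ± 0.103 CPM at E12.5. Sox1 held 1.96, 4.77 and 0.23 CPM at E10.5 and no count in any E11.5 library.

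A list of 18 cartilage genes reported as targets of the Sox trio was set beside the members. It includes all the chondrocyte markers summed beside Sox9 above, so the marker sum and this list are not separate observations. From E10.5 to E11.5, when Sox9 and Sox5 fell, 5 of the 18 fell and 1 rose (12.9% and 12.2% of all genes). The list median was -0.61. Matn3 went from 2.76 to 0.702 CPM, Cnmd, the gene of chondromodulin, from 0.966 to 0.242 CPM, and Hapln1, which links aggrecan to hyaluronan, from 85.7 to 23.4 CPM. Col27a1, a fibrillar collagen gene, was the 1 that rose, by 0.56 on the log2 scale, to 29.5 CPM.

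From E11.5 to E12.5, when Sox9 and Sox6 rose, 13 of the 18 rose and 0 fell, where 27.1% of all genes rose. The median was 1.72, or 1.38 with genes lacking counts at E11.5 set to a floor of 3 counts. Matn4 rose from 0.255 to 18.7 CPM and Acan, the gene of aggrecan, from 0.0691 to 4.17 CPM. Matn1 went from no count to 0.783 CPM, at least 22.6-fold higher. With the covariate for alignments in no gene, 4 of the 18 rose at this step and Sox9, Sox6, Sox8 and Sox13 were no longer called (adjusted p = 0.0813, 0.157, 0.457 and 0.847). That percentage did not overlap between E11.5 and E12.5, so it and stage cannot be told apart here.

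From E12.5 to E14.5, when Sox9 and Sox5 fell and Sox6 and Sox8 rose, 13 of the 18 cartilage genes rose and 1 fell (23.0% and 24.0% of all genes), with a median of 1.57. Col11a2, a collagen gene of the cartilage fibril, went from 7.54 to 234 CPM and Matn1 from 0.783 to 26.7 CPM. Snorc, a chondrocyte proteoglycan gene, rose likewise, and Wwp2, a ubiquitin ligase gene that hosts a microRNA of cartilage, fell from 105 to 88.6 CPM. Col2a1, the collagen of cartilage and a direct Sox9 target, named here after its values were seen, fell by 1.36 ± 0.28 to E11.5 (adjusted p = 0.00345) and rose by 1.08 ± 0.28 to E12.5 (adjusted p = 0.00667). At E14.5 it stood at 586, 588 and 258 CPM, a change of 0.36 ± 0.28 from E12.5 (adjusted p = 0.318).

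The summed level of the 18 genes was 2271, 2243 and 1440.0 CPM in E14.5 replicates 1, 2 and 3. Without E14.5 replicate 3, 14 of the 18 rose from E12.5 and 0 fell. That replicate also had the lowest value of the stage for Sox5 and Sox8 and the highest for the other 7 members, with Sox2 at 26.0 CPM against 13.8 and 19.0 CPM.

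**Figure D5:**
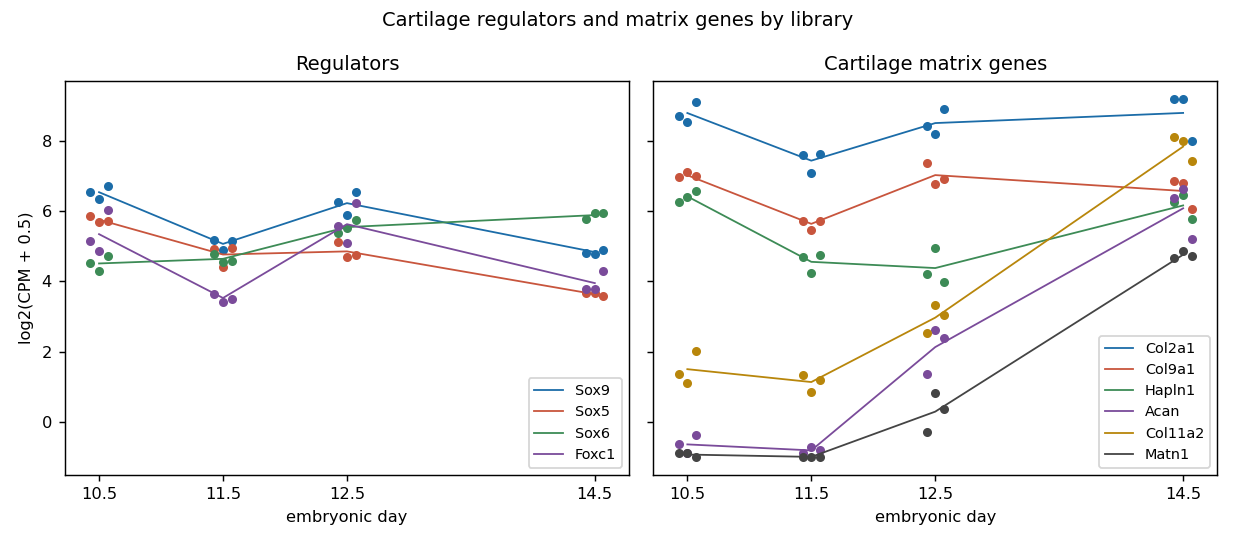
Level as log2(CPM + 0.5) by stage of Sox9, Sox5, Sox6 and Foxc1 (left) and of 6 cartilage genes, Col2a1, Col9a1, Hapln1, Acan, Col11a2 and Matn1 (right), with points for libraries and lines through stage means. Sox9, Foxc1, Col2a1 and Col9a1 all dip at E11.5, whereas Acan, Col11a2 and Matn1 climb to their highest level at E14.5 while Sox9 and Sox5 are at their lowest.

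Among 16 regulators that act around Sox9 in skeletal precursors, 9 rose and 2 fell from E10.5 to E11.5 (12.2% and 12.9% of all genes). Runx2, the regulator of osteoblasts, rose from 4.62 ± 2.58 to 71.8 ± 8.16 CPM (log2 change 3.96 ± 0.27, adjusted p = 5.28e-07) as Sox9 fell. Runx3 rose from 0.165 to 6.58 CPM, and Pthlh, the parathyroid hormone-like ligand that delays chondrocyte maturation, from 1.03 to 6.36 CPM. The falls were those of Foxc1, a forkhead gene of facial mesenchyme, from 42.8 to 11.1 CPM, and Bmpr1b, a BMP receptor gene, from 32.1 to 14.8 CPM.

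Foxc1 had the directions of Sox9 at all 3 steps, with changes of -1.95 ± 0.31, 2.22 ± 0.32 and -1.76 ± 0.31 (adjusted p = 0.000561, 0.000133 and 0.000441). Its libraries held 34.9, 28.8 and 64.7 CPM at E10.5, 12.1, 10.3 and 10.9 CPM at E11.5, 46.9, 34 and 74.2 CPM at E12.5, and 13.2, 13.2 and 19.3 CPM at E14.5. Within each of E10.5, E12.5 and E14.5 the third replicate was highest for Foxc1, as it was for Sox9.

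To E12.5 the regulators gave 6 rises and 3 falls (27.1% and 22.2% of all genes). Ihh, the hedgehog ligand of maturing chondrocytes, and Nkx3-2, a repressor that acts with Sox9, rose with Foxc1, and Trps1, a zinc finger gene, fell from 355 to 79.5 CPM, as did Pthlh and its receptor gene Pth1r. With the same covariate these became 0 rises and 1 fall. To E14.5, where 23.0% of all genes rose and 24.0% fell, there were 6 rises, led by Ihh from 0.252 to 3.12 CPM, Arid5a and Pthlh, and 4 falls, led by Foxc1, by Barx1, from 220.1 to 68.0 CPM, and by Zfp219, a cofactor of Sox9, from 112 to 55.5 CPM.

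For the SoxC genes the comparison list held 6 progenitor and cytoskeletal genes. From E10.5 to E14.5, 5 of the 6 fell and 0 rose, where 33.8% of all genes fell, with a median of -1.56 beside 0.06 over all genes. With the covariate for alignments in no gene, 3 of the 6 fell over that span. From E10.5 to E11.5, where no SoxC gene was called, 3 of the 6 fell and 0 rose (12.9% and 12.2% of all genes). To E12.5, 3 fell and 1 rose (22.2% and 27.1%), and to E14.5, 4 fell and 0 rose (24.0% and 23.0%). Tead2, a transcription factor gene of the Hippo pathway downstream of SoxC proteins, stood at 408, 376, 296 and 144 CPM and Stmn1, a tubulin-binding protein gene, at 688, 812, 532 and 224 CPM. Mycn, a gene of proliferating progenitors, fell at every step, from 136 to 76.5, 34.3 and 16.9 CPM. The list holds the neuronal genes Tubb3 and Dcx, and the 12 neuronal markers summed to 367 to 751 CPM at E10.5 and 99 to 236 CPM at E14.5.

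Sox6 silences embryonic globin genes in erythroid cells, so 10 globin genes and globin regulators were also examined. Of these, 5 rose and 0 fell from E10.5 to E11.5 (12.2% and 12.9% of all genes), 2 rose and 5 fell to E12.5 (27.1% and 22.2%), and 2 rose and 5 fell to E14.5 (23.0% and 24.0%). With the covariate for alignments in no gene the middle step had 0 rises and 2 falls. The list pools embryonic and adult globin genes with regulators, so these counts do not follow the embryonic genes alone. The embryonic Hbb-bh1 and Hba-x went from 1218 and 705 CPM at E10.5 to 1.79 and 23.2 CPM at E14.5. Hbb-y, also embryonic, went from 1692 to 241 CPM, with 3795 CPM at E11.5. The adult Hbb-bs, Hbb-bt and Hba-a1 went from 7.42, 15.0 and 222 CPM to 719, 347 and 606 CPM, and Hba-a2 from 8.33 to 8.85 CPM. Of 9 tested erythroid markers 0 were called from E10.5 to E11.5, 6 fell to E12.5 and 4 fell to E14.5. Their sums were 132 to 193 CPM at E10.5, 183 to 224 CPM at E11.5, 83.5 to 153 CPM at E12.5 and 36.6 to 89.7 CPM at E14.5, and their part in the globin counts was not tested. Skeletal muscle, where Sox6 is also active, had 12 markers that all rose from E12.5 to E14.5, where 23.0% of all genes rose. The muscle sums were 170 to 336 CPM and 1678 to 2098 CPM, beside the smaller rise of Sox6 at that step.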

How the data were processed

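The authors deposited raw counts, whole numbers for each Ensembl gene and library. The submitters' processing notes name mm10, HTSeq 0.12.4, STAR 2.7.3a and FastQC with no role for each. Strand setting and annotation release: not given in the sources used here. Symbols and positions came from GENCODE M21 (GRCm38), which matched 53620 of 53801 identifiers. Entries for alignments assigned to no gene, 14.33% to 18.57% of the listed alignments, stayed out of library sizes and tests. Reads carry no molecular identifiers, so floors cover counting error only.

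Counts were filtered by filterByExpr (minimum count 10), scaled by TMM and fitted in edgeR 4.0.16 (R 4.3.3) with 1 mean per stage over all 12 libraries, leaving 8 residual degrees of freedom. The fit was tested on simulated data. Ratios used log2(CPM + 0.5) in each library and an exact permutation test of the F statistic. No pair of libraries of a stage agreed within sampling noise (chi-square per degree of freedom at least 4.686). Separate litters are not stated in the labels, and p-values then cover only the spread among the 12 libraries, which may be technical. The 3 libraries of a stage limit the precision.

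The members, the gene and marker lists and the tests were chosen with earlier results of these data known, so no pattern is independent support. Named genes are all Sox genes in the lists, from each other list at most 3 called rises and 3 called falls per step, taken by size, and the 3 nearest profiles of each member. Col2a1, Col9a1, Runx2 after its first step, Otx2, Tead2, Dcx and Tubb3, and genes shown beyond their own step, were chosen after their values were seen. So were the globin genes named. Alternatives were size factors of DESeq2 1.42.0, DESeq2 itself, limma-voom (limma 3.58.1), no filter, globin and mitochondrial genes left out, the compared stages alone, a covariate for alignments in no gene, a replicate block, a pseudocount of 2 CPM and each library left out. Library totals without TMM, and list counts with the covariate or without E10.5 or E14.5 replicate 3, were added after the data were seen.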

Additional observations from a re-analysis of the deposited data

How the results depend on the processing

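Over 756 recomputed stage comparisons of single members, 689 kept direction and call, 42 lost the call, 2 gained it and 23 reversed, the last all for changes that were not called. The reversals concerned Sox8 from E10.5 to E11.5, at 0.0119 without TMM scaling and 0.0075 with the 2 stages alone (-0.16 to 0.19 with a library left out); Sox4 at that step (-0.0096 to 0.26 with a library left out); Sox4 from E11.5 to E12.5, at -0.0134 with size factors of DESeq2, -0.0149 with no filter, -0.004 in limma-voom and -0.0135 in DESeq2 (-0.20 to 0.14 with a library left out); Sox5 at that step (-0.0928 to 0.18); and Sox12 at that step, at 0.18 without TMM scaling (-0.27 to 0.0774). The cause of these reversals was not tested. With the percentage of alignments in no gene as a covariate, 2 members were called from E11.5 to E12.5 in place of 6, Sox2 higher and Sox11 lower. With a library left out, 3 members were called from E10.5 to E11.5, 4 to 5 to E12.5, and 8 to 9 in either comparison of E14.5. The change in the Sox13 to Sox5 ratio between E10.5 and E14.5 was then 0.35 to 0.58, with adjusted p from 0.00568 to 0.146 (0.48 without E12.5 replicate 1 or 2, where it passed). Size factors of DESeq2 moved the median of all genes by at most 0.025, and totals without TMM by 0.032, 0.215 and 0.076 at the successive steps, with 6905 genes higher and 1875 lower called from E11.5 to E12.5 in place of 4968 and 4079, and 8828 and 4114 from E10.5 to E14.5 in place of 6721 and 6211. Sox2 from E10.5 to E11.5 was called with no filter (adjusted p = 0.000734), and Sox12 from E11.5 to E12.5 without E12.5 replicate 3 (adjusted p = 0.0110).

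Deviations of same-numbered libraries correlated at -0.095 to 0.271 over 18 pairs, and 7 of 12 libraries correlated best with their own number. Between E10.5 and E12.5 all 3 same-numbered pairs were above 0.1 (0.116, 0.271 and 0.265), and other stage pairs were not so throughout, so the numbers were not taken as pairs; the permutation tests use no number. With a replicate block, 3, 5, 9 and 9 members were called in the 4 comparisons in place of 3, 6, 9 and 9.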
